A study of Mus musculus with 6 samples.

Results

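Ago2-deficient mature oocytes were compared here with wild-type germinal vesicle (GV) oocytes for the genes that make microRNAs (miRNAs) and load them onto Argonaute proteins. The 10 genes are Ago1, Ago2, Ago4, Drosha, Dgcr8, Xpo5, Dicer1, Tarbp2, Prkra and Tnrc6b. They were chosen by name, as every probe that the annotation of the array gives to 1 of these symbols alone. This gave 12 of the 33012 probes on the array, 3 for Drosha and 1 for each other gene, and each was read on all 6 arrays. Each array held the amplified cDNA of a single mouse oocyte. The 3 Ago2-deficient mature oocytes came from [Ago2F/F, Zp3-Cre] females, in which the floxed Ago2 gene is deleted by a Cre recombinase that the zona pellucida promoter Zp3 drives in growing oocytes only. The 3 wild-type GV oocytes are described as taken from oviducts of adult females, after removal of cumulus cells, as the methods say of ovulated metaphase II oocytes. The groups differ in genotype and in labelled stage, which cannot be told apart, and wild-type mature oocytes were not analysed here. The labels do not say which oocytes came from separate animals, so that each p-value measures only the spread between these oocytes.

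In the miRNA pathway the nuclear enzyme Drosha and its partner Dgcr8 cut a hairpin out of the primary transcript, Xpo5 carries it to the cytoplasm, and Dicer1, with Tarbp2 or Prkra, trims it to the duplex from which an Argonaute takes 1 strand. Argonautes bind their targets together with scaffold proteins of the Tnrc6 family, which recruit the enzymes that shorten the poly(A) tail. Ago2 is the member of the family known as the slicer, and in mouse oocytes Dicer1 and Ago2 also act on endogenous small interfering RNAs.

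Fewer probes were above noise in the mutant oocytes. A probe counted as detected where its signal-to-noise ratio reached 3, a limit that 4620 to 6798 probes passed in Ago2-deficient oocytes and 10650 to 11334 in wild-type GV oocytes. Undetected probes had median signals of 145 to 231 on the Ago2-deficient and 70.8 to 83.3 on the GV arrays, so the floor of the measurement also differed between the groups. Of 16 oocyte markers on the array, 9 to 11 were detected in Ago2-deficient oocytes and 15 or 16 in wild-type GV oocytes. Among these markers 15 were tested, and 12 were lower and 0 higher, where 44.8% of all tested genes were lower and 17.4% higher. The median log2 difference of the tested markers was -2.67. Of the lower ones, Figla, Kit, Mos, Tcl1 and Zp2 entered the test only through the GV oocytes, in which they were high. The count therefore describes these markers and supports nothing further. Of 15 cumulus and granulosa markers, 2 to 4 were detected in the Ago2-deficient and 3 to 5 in wild-type GV oocytes, and their summed signals were 13013 to 15438 in the Ago2-deficient and 5508 to 12908 in wild-type GV oocytes. Among the 5 of them that were tested, the EGF family ligands Btc and Ereg were detected in every mutant and in no GV oocyte. Btc was 71.2-fold higher and Ereg at least 24.4-fold higher. Hsd17b1, Inha and Nr5a2 were lower, and entered the test only through the GV oocytes. Amh, Fshr and Has2 were undetected on all 6 arrays. The part of these differences in the results was not tested. Values given here are log2 signals that the authors quantile normalized over the 6 arrays, and the median log2 difference of the 7915 genes tested was -1.39.

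The promoters of the 4 genes with the largest called differences are shown because, in Ago2-deficient oocytes, Drosha (by 1 probe), Tarbp2 and Dicer1 were lower and Tnrc6b was higher on the quantile-normalized values, though not with median scaling, which sets the arrays to 1 median (-0.57). Sequences are those of the RefSeq table for build GRCm38.p6, from 250 bases before to 50 bases after the annotated start, and 9 of the 10 genes, all but Ago2, were matched. Capitals mark CCAAT, the box bound by the factor NF-Y, on either strand (CCAAT or ATTGG).
Drosha (chr15:12824565-12824864, plus strand): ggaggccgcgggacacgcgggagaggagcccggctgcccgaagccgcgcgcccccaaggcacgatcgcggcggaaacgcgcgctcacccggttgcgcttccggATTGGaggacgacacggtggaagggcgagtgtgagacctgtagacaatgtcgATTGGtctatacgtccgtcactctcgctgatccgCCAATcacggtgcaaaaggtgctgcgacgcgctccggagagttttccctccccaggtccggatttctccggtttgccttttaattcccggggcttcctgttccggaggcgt
Tarbp2 (chr15:102517942-102518241, plus strand): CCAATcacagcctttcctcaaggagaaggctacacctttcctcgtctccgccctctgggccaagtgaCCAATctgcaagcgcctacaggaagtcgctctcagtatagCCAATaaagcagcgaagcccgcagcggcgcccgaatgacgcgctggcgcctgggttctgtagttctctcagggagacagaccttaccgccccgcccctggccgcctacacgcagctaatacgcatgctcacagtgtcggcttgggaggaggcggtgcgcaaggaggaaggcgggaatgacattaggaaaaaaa
Dicer1 (chr12:104751903-104752202, minus strand): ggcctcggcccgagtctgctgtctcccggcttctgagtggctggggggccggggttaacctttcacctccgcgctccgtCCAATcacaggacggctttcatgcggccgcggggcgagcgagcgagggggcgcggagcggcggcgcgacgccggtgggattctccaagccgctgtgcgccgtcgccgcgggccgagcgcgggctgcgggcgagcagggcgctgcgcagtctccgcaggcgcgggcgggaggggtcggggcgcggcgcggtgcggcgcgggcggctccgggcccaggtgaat
Tnrc6b (chr15:80711063-80711362, plus strand): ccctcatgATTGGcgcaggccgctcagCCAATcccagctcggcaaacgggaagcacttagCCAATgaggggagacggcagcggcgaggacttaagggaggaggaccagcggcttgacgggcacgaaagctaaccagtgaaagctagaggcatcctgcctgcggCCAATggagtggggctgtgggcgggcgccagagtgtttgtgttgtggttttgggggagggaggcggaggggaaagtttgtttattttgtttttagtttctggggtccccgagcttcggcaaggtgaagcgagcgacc
The box occurred 3 times in the promoter of Drosha, 3 times in that of Tarbp2, 1 time in that of Dicer1 and 4 times in that of the first start of Tnrc6b; the second start of Tnrc6b had none. Dgcr8, at the noise level on these arrays, also had 4. Of the 32851 promoters of this length in the table, 37.4% held at least 1 and 3.37% at least 3. A second motif, GGGCGG on either strand, the core of a GC box, occurred 2 times in Dicer1, 3 times in Tarbp2, 1 time in the first start of Tnrc6b and not in Drosha, and was present in 35.7% of all promoters. These matches describe the letters of the windows only.

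Of the Argonaute genes, Ago2 and Ago1 were at or near the noise level and Ago4 was the 1 with a clear signal. Ago2, the deleted gene, gave log2 signals of 6.67, 6.49 and 6.94 in the mutant oocytes and of 7.88, 6.25 and 6.93 in wild-type GV oocytes. Its signal-to-noise ratio ran from -0.96 to 1.20 in the mutant oocytes and was 5.24, 0.81 and 2.56 in wild-type GV oocytes, so only GV replicate 1 was detected and the groups overlapped. The means were 6.70 ± 0.22 in the Ago2-deficient and 7.02 ± 0.82 in wild-type GV oocytes (SD, n = 3 arrays each; two-sided exact permutation test, p = 0.7). The place of this probe in the transcript, inside or outside the deleted part, was not found in the sources used here, and it does not check the genotype. Ago1, a close relative of Ago2, gave 6.63 to 7.87 in the mutant oocytes and 7.29 to 7.41 in wild-type GV oocytes. It was detected on no array, as were 43.5% of all probes, and its groups overlapped.

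Ago4, which binds miRNAs but is not known to cut targets, gave log2 signals of 9.79, 11.14 and 11.06 in Ago2-deficient oocytes and 7.51, 7.42 and 7.75 in wild-type GV oocytes. All 3 mutant oocytes lay above all 3 GV oocytes, a separation that 31.9% of all 33012 probes also had in 1 direction or the other. On the deposited scale, before any scaling, the signals were 589, 1631 and 966 in the mutant oocytes and 150, 120 and 145 in wild-type GV oocytes. The signal-to-noise ratio was 2.15, 12.30 and 8.96 in the mutant oocytes and at most 1.59 in wild-type GV oocytes, so that Ago4 was detected in 2 mutant oocytes and in no GV oocyte. Of all probes, 422 (1.28%) were detected on 2 or 3 mutant arrays and on no GV array. Ago4 did not enter the main test, which took probes detected in all 3 oocytes of at least 1 group. Its means were 10.66 ± 0.76 in the Ago2-deficient and 7.56 ± 0.17 in wild-type GV oocytes (SD, n = 3 arrays each), a log2 difference of 3.10 (two-sided exact permutation test, p = 0.1, and 3 arrays against 3 can give none smaller). In the fit of all probes with no filter it was higher (adjusted p = 0.00484 from limma), where 5.22% of probes were called higher and 9.10% lower. The difference was positive under each scaling tried, from 1.72 with median scaling to 3.94 with centring on shared probes, those seen in every oocyte. Without Ago2-deficient replicate 1, the oocyte in which it was not detected, Ago4 was 11.6-fold higher.

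**Figure D1:**
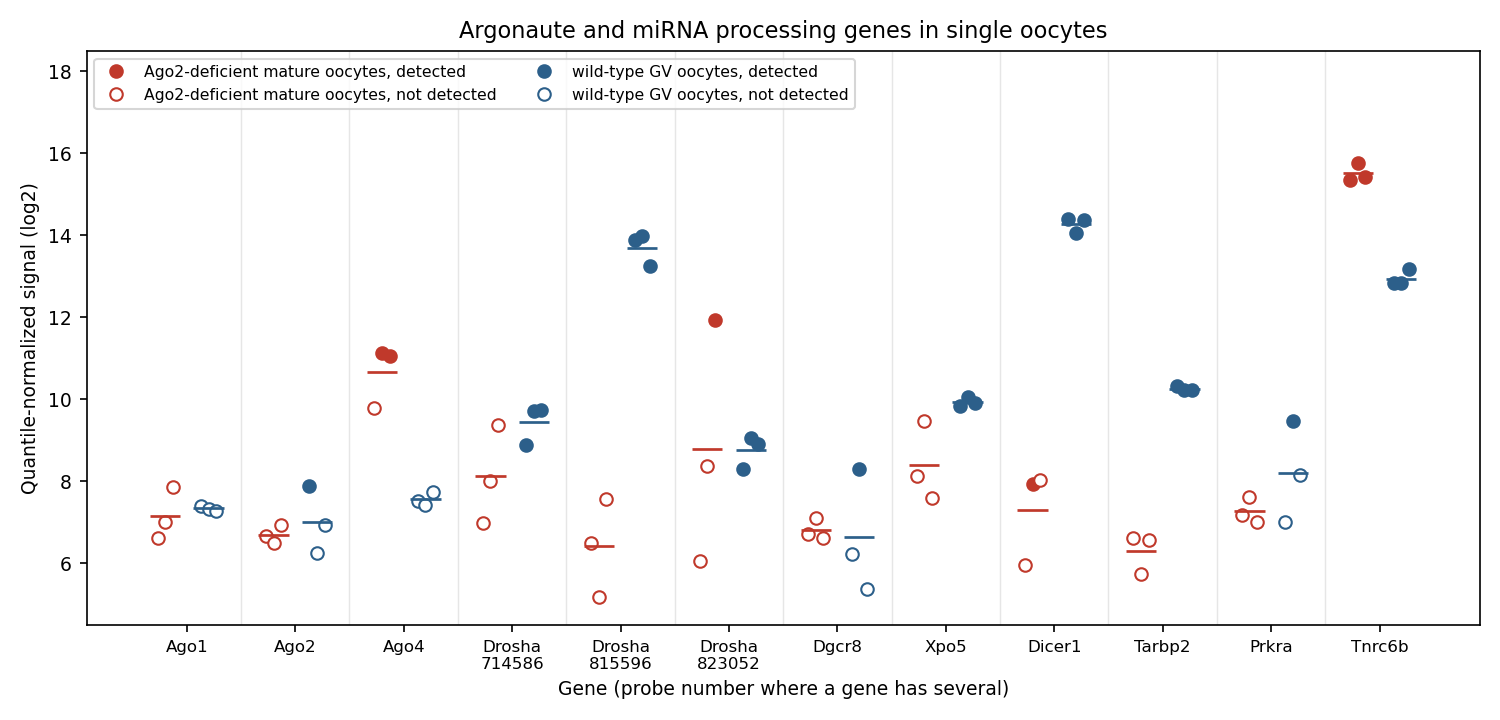
Quantile-normalized log2 signal (vertical axis) of each of the 12 probes in 3 Ago2-deficient mature oocytes (red) and 3 wild-type GV oocytes (blue); each circle is 1 oocyte, filled where the probe was detected, and bars are group means. The GV oocytes lie above the Ago2-deficient ones for Dicer1, Tarbp2, Xpo5 and Drosha probe 815596, and the Ago2-deficient oocytes lie above the GV ones for Ago4 and Tnrc6b.

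Drosha, the RNase III enzyme that cuts primary miRNA transcripts, was lower in Ago2-deficient oocytes by 1 of its 3 probes, and the other 2 did not pass the test. Among all tested probes 44.8% were lower. With probe 815596 the log2 signals were 6.49, 5.19 and 7.56 in Ago2-deficient oocytes and 13.88, 13.97 and 13.25 in wild-type GV oocytes. On the deposited scale these were signals of 153, 50.6 and 196 in the mutant oocytes and of 35563, 34410 and 19476 in wild-type GV oocytes. The mutant signals were within noise, at ratios of 0.94, 1.03 and 0.04, against 81.74, 53.96 and 71.76 in wild-type GV oocytes. The groups were far apart, and for 70.4% of tested probes they did not overlap either. The fitted log2 difference was -7.29 (standard error 0.63, adjusted p = 0.000235 from limma). Since no mutant oocyte was detected, the fold is given as a bound, the GV mean against the mutant mean after each mutant value was raised, where it lay below, to the dimmest signal detected on its array, and Drosha was at least 129-fold lower by this probe. The bound was 102 without Ago2-deficient replicate 2 and 174 without Ago2-deficient replicate 3, and lay between these with any other array left out. The bound holds for the quantile-normalized values of these arrays only and leaves out the spread between oocytes. Undetected signals can also lie above the dimmest detected one, as those of Xpo5 did. With cyclic loess the fitted difference was -5.11.

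With probe 714586 the log2 signals of Drosha were 6.98, 8.01 and 9.38 in Ago2-deficient oocytes and 8.90, 9.71 and 9.75 in wild-type GV oocytes. Again no mutant oocyte was detected and every GV oocyte was, but Ago2-deficient replicate 3 lay inside the GV range. The difference was -1.33 (95% interval -2.88 to 0.23, adjusted p = 0.115 from limma) and was not called. It was called without Ago2-deficient replicate 3 (-1.96, adjusted p = 0.0157), with median scaling (-2.56) and with no scaling (-1.45), and turned to 0.25 with cyclic loess.

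With probe 823052 the log2 signals were 6.06, 8.38 and 11.92 in Ago2-deficient oocytes and 8.31, 9.05 and 8.92 in wild-type GV oocytes. This probe was detected in all 3 GV oocytes and, at a ratio of 15.18, in Ago2-deficient replicate 3, which was the highest of the 6. The difference was 0.03 (95% interval -3.25 to 3.31, adjusted p = 0.987 from limma), and without Ago2-deficient replicate 3 it was -1.54 (adjusted p = 0.114). Across the 3 pairs of Drosha probes, the log2 difference by probe 815596 was more negative than that by probe 714586 by 5.96 (standard error 0.80) and than that by probe 823052 by 7.32 (standard error 1.49). The arrays of the groups did not overlap in either of these pairs (exact permutation test, two-sided p = 0.1 each, the smallest possible, and 0.15 adjusted over the 3 pairs). All 3 probes carry the same transcript accession in the annotation. Because the mutant signals of probe 815596 were all within noise, the sizes of these gaps are those of the fitted values only. Over 100 genes with 1 symbol and at least 2 tested probes, the log2 differences of the probes of a gene had a median spread of 1.93. Drosha ranked 5 from the widest, at 7.32. Only 3 of the 100 genes, Drosha among them, had at least 3 tested probes. The spread runs from the lowest to the highest probe and can widen with their number, so this rank is not like for like. Of the 100 genes 40 had probes called in 1 direction and others not called, and 14 had probes called in opposite directions.

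**Figure D2:**
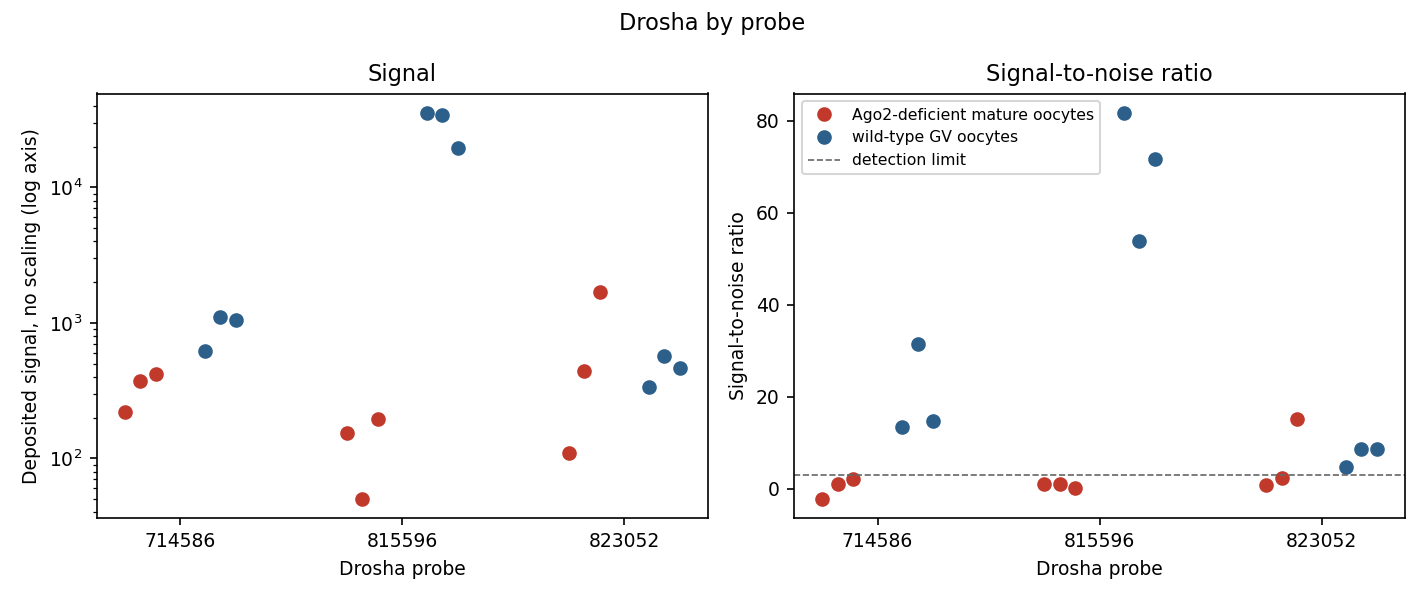
Deposited signal on a log axis (left) and signal-to-noise ratio (right) of the 3 Drosha probes in Ago2-deficient mature oocytes (red) and wild-type GV oocytes (blue); each circle is 1 oocyte and the dashed line marks the detection limit of 3. Only probe 815596 has GV signals of 19476 or more, and probe 823052 passes the limit in 1 Ago2-deficient oocyte, at 15.18.

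Dgcr8, the RNA-binding partner of Drosha, gave 6.71, 7.10 and 6.61 in Ago2-deficient oocytes and 6.24, 8.30 and 5.38 in wild-type GV oocytes. It reached the detection limit only in GV replicate 2, at a signal-to-noise ratio of exactly 3, and the groups overlapped. No fold can be given at these signals.

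Xpo5, which exports hairpin precursors from the nucleus, had a modestly lower signal in Ago2-deficient oocytes. The log2 signals were 8.12, 9.47 and 7.59 in the mutant oocytes and 9.84, 10.07 and 9.91 in wild-type GV oocytes. The signal-to-noise ratio was at most 1.97 in the mutant oocytes and 23.00, 17.55 and 16.22 in wild-type GV oocytes, so the gene was detected in every GV oocyte and in no mutant one. The log2 signals of the groups did not overlap, as for 70.4% of tested probes. The difference was -1.54 (standard error 0.52, 95% interval -2.80 to -0.29, adjusted p = 0.0380 from limma), or 2.92-fold lower. No mutant value lay below the dimmest signal detected on its array, so this fold is not a bound. Every mutant signal was under the detection limit, so the fold is measured against the noise level of those arrays. The call was lost in 5 of the 6 fits that left out 1 array (adjusted p = 0.0712 to 0.114 from limma). It was kept only without Ago2-deficient replicate 2. Xpo5 was then 4.23-fold lower, against 2.21-fold without Ago2-deficient replicate 3. With cyclic loess the difference was 0.26 (adjusted p = 0.614).

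Dicer1, the RNase III enzyme of the cytoplasm, had 1 of the largest differences of the pathway. Its log2 signals were 5.95, 7.93 and 8.05 in Ago2-deficient oocytes and 14.41, 14.07 and 14.38 in wild-type GV oocytes. The deposited signals were 101, 362 and 245 in the mutant oocytes and 47341, 36634 and 40952 in wild-type GV oocytes. Every GV oocyte was thus far above every mutant oocyte, and for 70.4% of tested probes the groups did not overlap either. The signal-to-noise ratio was 1.10, 5.29 and 2.64 in the mutant oocytes, so that Dicer1 was detected in Ago2-deficient replicate 2 alone, against 58.63, 57.97 and 67.21 in wild-type GV oocytes. The means were 7.31 ± 1.18 in the Ago2-deficient and 14.28 ± 0.19 in wild-type GV oocytes (SD, n = 3 arrays each), a log2 difference of -6.98 (95% interval -8.43 to -5.52, adjusted p = 0.000235 from limma). Because 2 of the 3 mutant signals were under the detection limit, this difference is measured largely against the noise level of those arrays. It was -6.30 without Ago2-deficient replicate 1 and -7.29 without Ago2-deficient replicate 2, the only mutant oocyte in which Dicer1 was detected. Across the scalings it ran from -8.74 with median scaling to -4.83 with cyclic loess and was called in each.

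Tarbp2, which binds double-stranded RNA and partners Dicer1 in the loading complex, was also lower in the Ago2-deficient oocytes. Its log2 signals were 6.61, 5.74 and 6.57 in the mutant oocytes and 10.34, 10.22 and 10.22 in wild-type GV oocytes, with no overlap, as for 70.4% of tested probes. Its signal-to-noise ratio was at most 0.87 in the mutant oocytes and 34.22, 27.37 and 30.35 in wild-type GV oocytes, so the gene was undetected in every mutant and detected in every GV oocyte. The log2 difference was -3.96 (standard error 0.36, adjusted p = 0.000264 from limma), at least 14.5-fold lower, and the bound was 12.7 to 15.6 with each array left out in turn. With each scaling tried Tarbp2 was called lower, with a difference of -2.71 nearest to 0, under cyclic loess.

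Prkra, the second such partner of Dicer1 and the activator of the kinase PKR, gave 7.17, 7.62 and 7.01 in Ago2-deficient oocytes and 7.02, 9.47 and 8.15 in wild-type GV oocytes. Only GV replicate 2 was detected, at a ratio of 8.78, and the lowest GV oocyte lay among the mutant ones. Prkra did not enter the main test. In the fit of all probes its difference was -0.95 (standard error 0.65, adjusted p = 0.415 from limma).

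Tnrc6b, the scaffold through which Argonautes reach the deadenylases, was the 1 member detected in all 6 oocytes. Its log2 signals were 15.36, 15.77 and 15.43 in Ago2-deficient oocytes and 12.83, 12.83 and 13.17 in wild-type GV oocytes. All mutant oocytes lay above all GV oocytes, a separation that 70.4% of tested probes also had in 1 direction or the other. The deposited signals, before scaling, were 12103, 54800 and 24784 in the mutant oocytes and 18411, 15807 and 18635 in wild-type GV oocytes, and on this scale the groups overlapped. The means of the quantile-normalized values were 15.52 ± 0.22 in the Ago2-deficient and 12.94 ± 0.19 in wild-type GV oocytes (SD, n = 3 arrays each). The log2 difference was 2.58 (95% interval 1.82 to 3.33, adjusted p = 0.000689 from limma), where 17.3% of tested probes were called higher. It was 2.45 to 2.69 with each array left out in turn, 2.54 with cyclic loess and 1.64 with centring on shared probes, but -0.57 with median scaling and 0.53 with no scaling, neither of which was called. Its direction therefore depended on how arrays were scaled. The signal-to-noise ratio, which needs no scaling, was 23.71, 33.99 and 45.90 in the mutant oocytes and 45.05, 60.36 and 57.52 in wild-type GV oocytes, and 1 mutant oocyte lay inside the GV range.

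**Figure D3:**
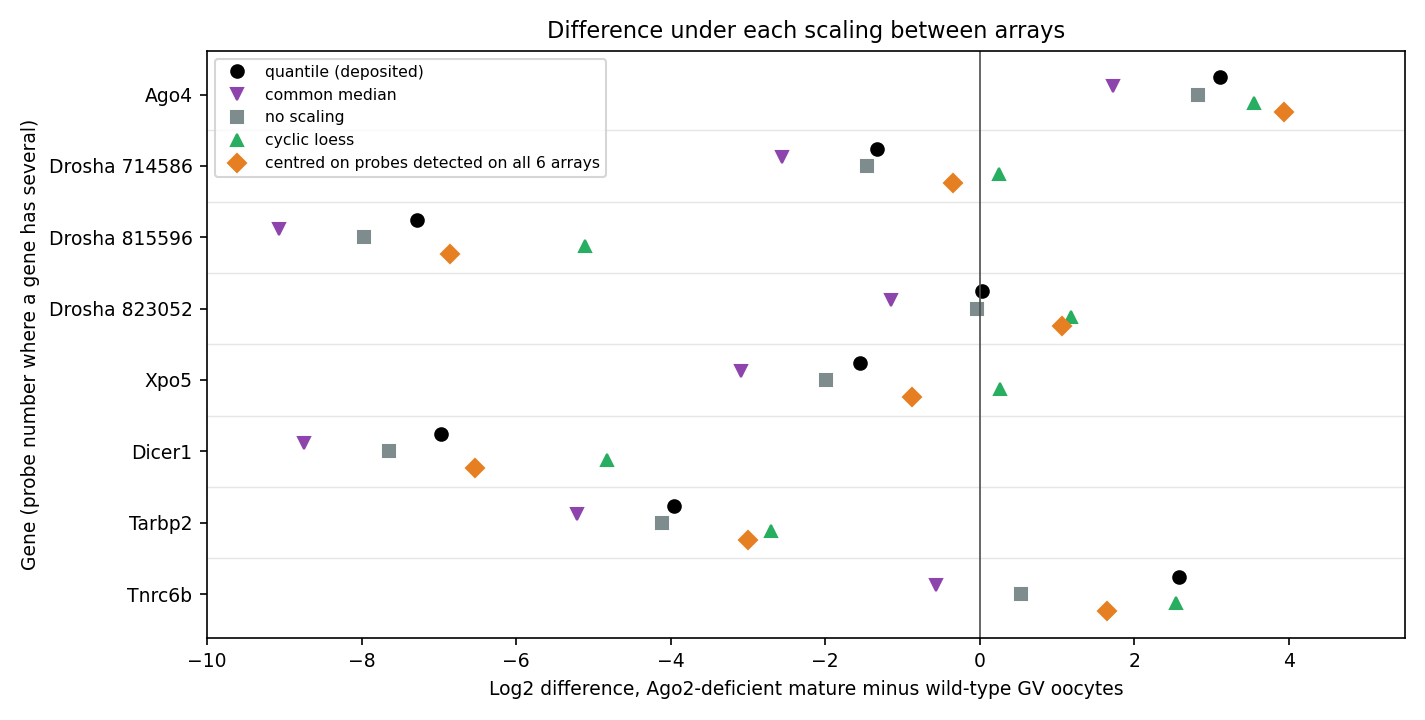
Horizontal axis: log2 difference, Ago2-deficient oocytes minus wild-type ones at the GV stage, for Ago4 and the 7 tested probes (rows) under 5 ways of scaling the arrays. Dicer1, Tarbp2 and Drosha probe 815596 stay left of 0 under each scaling and Ago4 stays right of it; Tnrc6b moves to -0.57 with median scaling, and Xpo5 and Drosha probe 714586 move to 0.26 and 0.25 with cyclic loess.

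Over the 12 probes, the number detected was 1, 3 and 3 in Ago2-deficient oocytes and 8, 9 and 7 in wild-type GV oocytes. Of the 7 probes detected in all GV oocytes, 4 were detected in no mutant oocyte (2 of Drosha, Tarbp2 and Xpo5), 2 in a single mutant oocyte (Dicer1 and Drosha probe 823052) and 1 in all 3 (Tnrc6b). Among all 7765 probes detected in all GV oocytes, 34.1% were detected in no mutant oocyte, 18.9% in 1 and 32.4% in all 3. Of the 10 genes, 5 passed the filter. When a gene with several probes was counted by its brightest, Drosha, Dicer1, Tarbp2 and Xpo5 were lower and Tnrc6b was higher, where 62.2% of the 7915 tested genes were called, 44.8% lower and 17.4% higher. Over all genes this was 1378 higher and 3543 lower, and the split was 311 and 6223 with median scaling, 609 and 4778 without scaling, and cyclic loess gave 1952 and 2515. The 4 lower members passed the filter only through the GV oocytes, in which they were high, so this count describes them and supports nothing further. The median difference was -3.96 over the 5 tested genes, beside -1.39 over all genes tested, -1.54 over the 7 tested probes, beside -1.39 over all probes tested, and -0.64 over all 12 probes, beside 0.13 over all probes of the array.

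To see which other genes followed the same course, the profile of each tested probe was centred on its mean and the nearest profile of another named gene was taken among 4671 tested probes, by the root mean square of the differences over the 6 arrays. The nearest to Dicer1 was Tfap2e, a transcription factor of the AP-2 family, at 0.39 on the log2 scale. For Drosha probe 815596 it was Snupn, the adaptor that imports small nuclear ribonucleoproteins, at 0.34. For Tarbp2 it was Eif3j1, a subunit of a translation initiation factor, at 0.15. The profile nearest to Xpo5 was that of Lmna, a nuclear lamin, at 0.11, although Lmna was detected in all 6 oocytes. The nearest to Tnrc6b was Hsd3b4, a steroid dehydrogenase, at 0.10. The 2 other Drosha probes were nearest to different genes, Dnajc18 at 0.22 and Srrm1 at 0.56. The mutant values of Tarbp2, Xpo5 and Drosha probes 815596 and 714586 were all undetected, and those of Dicer1 and Drosha probe 823052 in 2 of 3 oocytes, so that this part of their profiles is noise and the distances describe mainly the gap between the groups.

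Of 79 further genes listed, 54 were on the array with a symbol of their own and 28 were tested, of which 8 were higher, 13 were lower and 7 did not pass the test, where 17.4% of all tested genes were higher and 44.8% lower. Their median difference was -1.35, close to the -1.39 of all tested genes. Of the 13 lower genes all but 1 passed the filter only through the GV oocytes, in which they were high. Of the 8 higher genes, Ddx6 passed it only through the mutant oocytes. These counts, and those of each list below, therefore describe the genes and support nothing further. The sign of all 13 lower genes held under each scaling except for Lin28a, at 0.08 with cyclic loess, but only 10 of the 13 were called with cyclic loess and 9 with centring on shared probes. Of the 8 higher genes 6 had a negative difference with median scaling (Limd1, Ptges3, Khsrp, Ncbp2, Srrt and Eif4e) and 2 with no scaling (Limd1 and Ptges3).

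In nuclear processing and export, 3 of 8 tested genes were higher and 3 lower, beside 17.4% and 44.8% of all genes. Khsrp, a protein that binds the terminal loop of some hairpin precursors, differed by 2.48 (adjusted p = 0.00112 from limma), Ncbp2, a cap-binding protein, by 2.19 and Srrt, which links the cap to Drosha, by 1.97, and each of them was negative with median scaling. Xpo1, the general export receptor, was lower, with a difference of -3.42, or -4.34 without Ago2-deficient replicate 3 and -1.50 with cyclic loess. Adar, which edits adenosines in double-stranded RNA, was at least 5.84-fold lower, and was not called with centring on shared probes (-1.10). Zc3h10, undetected in every mutant oocyte, was 4.18-fold lower on the quantile-normalized values. It was not called with cyclic loess (-0.29) or centring on shared probes (-1.09). Ddx17, a helicase of the Drosha complex, had log2 signals of 13.71, 13.82 and 13.72 in Ago2-deficient oocytes and 14.02, 13.81 and 13.81 in wild-type GV oocytes, and missed the threshold at -0.13. It was called at -3.42 with median scaling, at -2.32 with no scaling and at -1.21 with centring on shared probes. Hnrnpa2b1 was not called at -0.86, turned to 0.62 with cyclic loess and was called at -2.47 with median scaling.

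Among the partners of Argonaute, 2 of 5 tested genes were higher (17.4% of all genes) and 2 lower (44.8%). Fxr1, a relative of the fragile X protein, gave 9.85, 6.12 and 6.94 in Ago2-deficient oocytes and 14.61, 14.28 and 14.24 in wild-type GV oocytes, and it was detected in no mutant and in every GV oocyte. By the fitted difference of -6.74 (standard error 0.93) Fxr1 was 107-fold lower. It was 230-fold lower without Ago2-deficient replicate 1 and 63.4-fold lower without Ago2-deficient replicate 2. No mutant value lay below the dimmest signal detected on its array, so these folds are not bounds. Every mutant signal was under the detection limit, so they are measured against the noise level of those arrays. With cyclic loess the fitted difference became -4.90. Wtip, a LIM protein of processing bodies, was lower, with a difference of -3.72 (-4.36 without Ago2-deficient replicate 2, -2.12 with cyclic loess). Its relative Limd1 was higher by 1.56, but had a difference of -1.65 with median scaling. Ptges3, a chaperone partner of Hsp90, was higher by 1.49 (adjusted p = 0.0326 from limma) and differed by -1.75 with median scaling, and lost its call in every fit that left out 1 array except that without Ago2-deficient replicate 1. Mov10, a helicase, was not called at -1.13, turned to 0.29 with cyclic loess and was called at -2.67 with median scaling.

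In miRNA turnover and tailing, 3 genes were tested, of which 1 was higher and 1 lower, beside 17.4% and 44.8% of all genes. Tut7, which adds uridines to hairpin precursors, had log2 signals of 14.66, 14.57 and 14.61 in Ago2-deficient oocytes and 10.22, 10.15 and 10.68 in wild-type GV oocytes, well apart. Its difference was 4.26, with a standard error of 0.31 (adjusted p = 0.000163 from limma), and was called higher under each scaling, from 1.44 with median scaling to 5.18 with cyclic loess. Lin28a, which recruits such enzymes to let-7 precursors, was lower, with a difference of -1.60 (adjusted p = 0.0309 from limma), a call that was lost without any 1 of the GV oocytes (adjusted p = 0.0799 to 0.0994). Tsnax, a subunit of a nuclease that clears passenger strands, missed the threshold at -2.76 (adjusted p = 0.0725 from limma) and passed it without Ago2-deficient replicate 1 (-1.35) and without Ago2-deficient replicate 3 (-3.51), and also with median scaling (-5.22), with no scaling (-4.11), with centring on shared probes and with array weights (-2.16).

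Among the effectors of repression, 7 of 12 tested genes were lower and 2 higher, where 44.8% of all genes were lower and 17.4% higher. Eif4enif1, which ties eIF4E to the repressed messenger RNA, was lower, at -5.69 with a standard error of 1.20 (adjusted p = 0.00595 from limma), which became -4.24 when Ago2-deficient replicate 1 was left out and -6.63 when Ago2-deficient replicate 3 was. Cnot2, of the deadenylase complex, was lower, at -4.28 (-3.67 without Ago2-deficient replicate 1 and -4.97 without Ago2-deficient replicate 2) and Dcp1a, of the decapping complex, was lower, at -4.03. With cyclic loess these 3 differences were -4.40, -2.25 and -2.55, and all were called. A second, untested probe of Dcp1a differed by 0.25. The cap-binding Eif4e was higher by 1.83, but differed by -1.05 with median scaling. The helicase Ddx6 was higher by 2.55 (adjusted p = 0.0307 from limma), lost its call with 4 of the 6 arrays left out in turn (adjusted p = 0.0538 to 0.109) and was 3.47 without GV replicate 3. The Ddx6 probe that was not tested differed by -0.32. Lsm14a and Lsm14b were not called, at -0.48 and -1.15, but Lsm14b was called without Ago2-deficient replicate 2 (-1.59). Lsm14a was called at -3.68 with median scaling, at -2.57 with no scaling and at -1.46 with centring on shared probes, and Lsm14b at -4.01, -2.90 and -1.79.

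**Figure D4:**
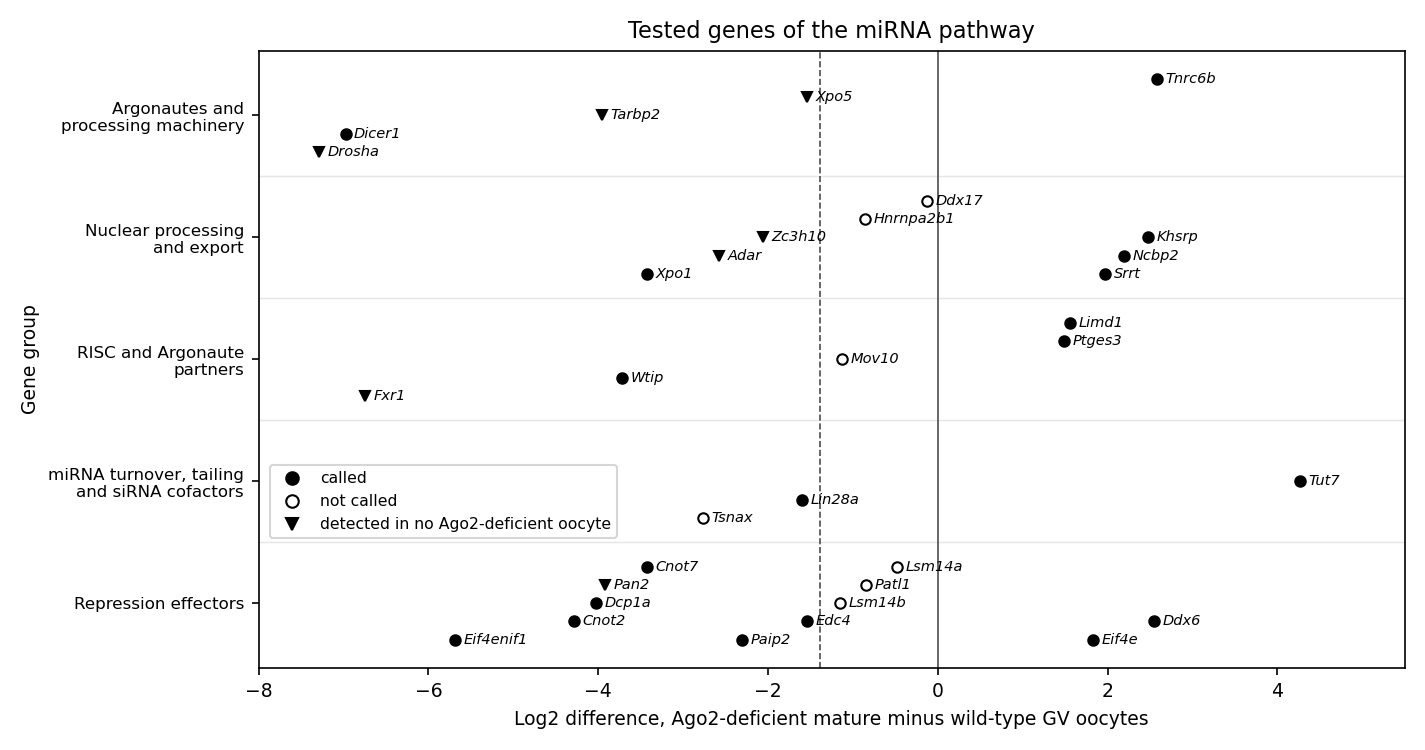
Horizontal axis: log2 difference, Ago2-deficient oocytes minus wild-type ones at the GV stage, of the tested genes, in rows for 5 groups of the miRNA pathway; filled symbols were called, open symbols were not, triangles were detected in no Ago2-deficient oocyte, and a dashed line at -1.39 gives the median over every gene tested. Drosha, by its brightest probe, Dicer1 and Fxr1 lie farthest to the left and Tut7 farthest to the right; with median scaling Tnrc6b, Limd1, Ptges3, Khsrp, Ncbp2, Srrt and Eif4e lie left of 0.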

How the data were processed

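RNA of single oocytes was amplified, labelled as cRNA and hybridized to chemiluminescent Applied Biosystems mouse arrays. The deposited signal intensity of each spot had not been scaled between arrays. Beside it stood a deposited score, the signal over its noise, and a flag; of the scanner software the sources used here say nothing. The authors also deposited log2 values, quantile normalized over the 6 arrays, and a series table that repeats them, with 2675 cells emptied where the flag was 5000 or above. By the annotation 14411 probes have 1 symbol, 247 have several and 18354 have none, and RefSeq holds the gene identifiers of 14402. Probes lacking a single symbol each stood for a gene, and the brightest tested probe stood for a gene that had several.

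Probes detected in all 3 oocytes of at least 1 group (8018 probes, 7915 genes) entered a linear fit of the log2 values (limma 3.58.1, R 4.3.3). Adjustment of p-values followed Benjamini and Hochberg, over all probes tested, and a call needed an adjusted p under 0.05 and a fold over 2. The number of arrays limits the precision. Replicate numbers were not used as a block. The genes, lists and tests were chosen with earlier results of these data known. Named are all members with each probe, the profile nearest to each tested member, and in each list up to 3 called genes in each direction with the largest differences and up to 2 not called with the highest signal; other genes of a list are counted only. The second probes of Dcp1a and Ddx6 were named after their values were seen. Alternatives covered scaling, background, filter, detection limit, flags, thresholds, variance model, block and each array left out. Python 3.11.15 and matplotlib 3.10.9 made the plots.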

Additional observations from a re-analysis of the deposited data

How the results depend on the processing

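Dicer1, Tarbp2 and Drosha probe 815596 kept their direction and call in each alternative that tested them (22 each). Only the filter for probes detected on all 6 arrays left them out, and with it 543 genes were lower, among them 0 members and 1 other pathway gene. With median scaling, 311 genes were called higher (1378 on the quantile-normalized values) and 6223 lower (3543). Then 0 members (1) and 1 other pathway gene (8) were higher and 22 other pathway genes (13) were lower. With no scaling 609 genes, 0 members and 2 other pathway genes were higher. With cyclic loess 1952 genes were higher and 2515 lower. Over all tested genes the difference had a median of -3.08 with median scaling, -1.98 with no scaling, -0.36 with cyclic loess and -0.87 with centring on shared probes, against -1.39. The number of members called higher was 2 with no filter on dim probes, with probes detected on at least 1 array and with a detection limit of 2, since Ago4 then entered the test.

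Among tested members, signs turned for Tnrc6b with median scaling (-0.57), for Xpo5 (0.26) and Drosha probe 714586 (0.25) with cyclic loess, and for Drosha probe 823052 with median scaling (-1.14), with no scaling (-0.040), and when Ago2-deficient replicate 3 (-1.54) or GV replicate 1 (-0.20) was left out; the range over arrays left out was -1.54 to 1.39. The cause of these changes was not tested. Xpo5 lost its call in 11 further alternatives. With each array left out in turn, the members called higher were 1 to 2 and lower 3 to 4, other pathway genes higher 6 to 8 and lower 10 to 15, and all genes higher 1207 to 1957 and lower 3019 to 3812; without Ago2-deficient replicate 1 the count of higher genes was 1957.

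The labels do not say whether the replicate numbers pair the oocytes across the groups. Over the tested probes the deviations from the group means correlated at -0.05, 0.03 and -0.03 for numbers 1, 2 and 3. Many of these probes were undetected in mutant oocytes, so the correlations cannot decide it. With the replicate number as a block 1291 genes were higher and 3384 lower, 1 member was higher and 4 lower, and 7 other pathway genes were higher and 13 lower. The block changed no call of a member. Ago1, Ago2, Dgcr8 and Prkra were at or near the noise level in most oocytes of both groups, so a lower level in Ago2-deficient oocytes could hardly be seen in them. Their uncalled differences also changed sign, Ago2 at 0.70 with no scaling and 1.81 with centring on shared probes, Ago1 at 0.85 and 1.96 with the same scalings, Prkra at 0.89 with centring and Dgcr8 at -0.03 with cyclic loess.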
